A study of Mus musculus with 19 samples.

Results

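The genes described here encode the TGF-beta ligands Tgfb1, Tgfb2 and Tgfb3, their receptors Tgfbr1, Tgfbr2 and Tgfbr3, and the modulators Bambi, Fstl1, Smad3 and Smad7. They are 10 of the 18194 genes that the array measures with a probe set of a single gene symbol. They were chosen by name, with earlier results of these data known. Each was represented by the brightest of its probe sets over all arrays, and all 10 passed the signal filter that left 10733 genes for testing. RNA came from the left ventricular myocardium of male C57BL/6 mice, operated at 7 weeks of age and sacrificed 4 weeks later. There were 7 mice with aortic banding and heart failure, 7 with aortic banding and no heart failure, and 5 with a sham operation (sAB). Banding narrows the aorta and raises the pressure against which the ventricle ejects. Each mouse gave 1 array, and the labels name no transgene or drug. The labels do not define heart failure. Left ventricular weight over tibia length, as labelled, was 8.97 ± 0.61 (SD, n = 7) with heart failure, 6.98 ± 0.44 (n = 7) without it and 5.14 ± 0.26 (n = 5) in sham mice. Labelled lung weight over tibia length was 17.92 to 24.62 with heart failure, 8.52 to 10.83 in banded mice without it and 8.20 to 9.38 in sham mice.

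TGF-beta ligands are secreted in a latent complex, held in the matrix, and act once they are released from it. An active ligand joins the type II receptor Tgfbr2 with the type I kinase receptor Tgfbr1, which phosphorylates the transcription factors Smad2 and Smad3, while the co-receptor Tgfbr3 (betaglycan) binds ligand and presents it, with particular weight for the Tgfb2 ligand. Bambi is a decoy receptor without a kinase domain, Smad7 is an inhibitory Smad that blocks the activated type I receptor, and Fstl1 is a secreted follistatin-like glycoprotein made by heart muscle and stromal cells. In the heart the pathway is known for its part in fibroblast activation and collagen deposition.

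Heart muscle markers were present on every array, and whether some samples held atrial tissue was not tested. All 10 cardiomyocyte markers lay above the filter, with a summed log2 level between 18.66 and 18.81 on all 19 arrays, and 0 of 5 measured lymphocyte markers did. Cd3e, Cd3d and Cd79a were below the filter on every array. Summed atrial markers ranged from 8.57 to 15.38 in mice with heart failure, from 10.57 to 14.83 in banded mice without it and from 9.62 to 13.74 in sham mice, so atrial marker signal varied within groups. The 3' minus 5' difference of the actin control probe sets, a sign of RNA quality, was 0.661 to 0.905 with heart failure, 0.672 to 0.898 in banded mice without it and 0.943 to 1.02 in sham mice, so it cannot be told apart from banding. An 18S control probe set was high (9.03 to 11.76) on 6 arrays, from banded mice 5 to 7 without heart failure and sham mice 1 to 3, and low (5.14 to 7.62) on the other 13. The IDs of those 6 animals belong to a single number series, to which mice 1 and 2 with heart failure, both low, also belong. The mean of all 18S control probe sets was high on 4 arrays, from banded mice 5 to 7 without heart failure and sham mouse 1, and low on 15. These 2 splits differ only in sham mice 2 and 3, so both low sets hold the same banded mice.

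The promoters below are shown because Tgfb2 changed most among the 10 genes, Tgfb1 rose in both banded groups without passing between them, and Fstl1 rose beside Tgfb2. Each is the 250 bases before the start of the gene, 5′ to 3′, from RefSeq on GRCm38.p6, a build used here for sequence only. Of the 10 genes, 6 were matched in the promoter table by symbol: Tgfb1, Tgfb2, Tgfbr1, Tgfbr2, Fstl1 and Smad3. Capitals mark matches to 4 motifs on either strand. A Smad box was searched as the letters CAGAC. The TATA box was searched as TATAAA. For the E-box the search word was CACGTG. The GC box, finally, had the letters GGGCGG. No matches overlapped one another.
Tgfb2, chr1:186705990-186706239, minus strand: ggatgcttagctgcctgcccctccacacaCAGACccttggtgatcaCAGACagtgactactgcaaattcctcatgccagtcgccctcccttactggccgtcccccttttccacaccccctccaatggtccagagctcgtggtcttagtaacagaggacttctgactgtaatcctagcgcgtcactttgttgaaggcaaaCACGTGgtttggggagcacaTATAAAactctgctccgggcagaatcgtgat
Tgfb1, chr7:25686752-25687001, plus strand: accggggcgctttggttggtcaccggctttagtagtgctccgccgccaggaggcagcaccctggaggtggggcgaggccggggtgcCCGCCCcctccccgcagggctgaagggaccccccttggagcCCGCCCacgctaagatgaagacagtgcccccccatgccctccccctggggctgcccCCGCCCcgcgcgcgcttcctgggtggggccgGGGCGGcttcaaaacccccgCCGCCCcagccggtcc
Fstl1, chr16:37776805-37777054, plus strand: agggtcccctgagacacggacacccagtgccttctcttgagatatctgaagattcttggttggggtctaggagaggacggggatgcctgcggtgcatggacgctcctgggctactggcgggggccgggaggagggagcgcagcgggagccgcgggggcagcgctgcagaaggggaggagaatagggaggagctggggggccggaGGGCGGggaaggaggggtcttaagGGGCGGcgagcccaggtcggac
The Tgfb2 promoter held 2 Smad boxes, 1 TATA box and 1 E-box and 0 GC boxes, with 53.6% G and C. In contrast the Tgfb1 promoter held 5 GC boxes and none of the other letters, with 75.2% G and C, and the Fstl1 promoter held 2 GC boxes with 68% G and C. Among all 32851 promoters in the table, 42.2% held a Smad box, 12.4% a TATA box, 6.02% an E-box and 32.7% a GC box in this window. These matches describe the letters and not the binding of any factor.

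The comparison of banded mice with heart failure against sham mice asks how the pathway stood in failing ventricles. Of the 10 genes 8 rose and 0 fell, against 39.3% of all 10733 genes that passed in either direction and 20.4% that rose (limma with Benjamini-Hochberg adjustment over all genes, threshold 0.05). Of all genes 18.9% fell. For 4 of the 10 genes every failing ventricle lay above every sham one, a separation that 17.6% of all genes showed, 8.5% upward and 9.06% downward. The median log2 change was 0.63 for the 10 genes and 0.01 for all genes tested. In banded mice without heart failure against sham, 6 rose and 0 fell, against 17.4% of all genes passing 10.8% rising and 6.53% falling, with medians of 0.49 for the 10 genes and 0.02 for all. Here 3 of the 10 lay wholly above sham, against 7.67% of all genes separated, 4.63% upward and 3.04% downward. Quantile normalisation of the arrays moved the split of all calls, to 1794 higher and 2586 lower with heart failure (2193 and 2027 without that step) and to 902 and 926 without heart failure (1164 and 701). Equal array medians gave 1519 and 473 in the second comparison. Under quantile normalisation 7 and 4 of the 10 genes rose, the calls of Bambi in both and of Tgfbr1 without heart failure being lost. In whole ventricle, more cells of a type and more RNA per cell cannot be told apart. Both comparisons use the same 5 sham mice, so their values are given side by side and not as independent evidence. The 10 genes were chosen with earlier results of these data known, so their counts beside the shares of all genes only describe them. Adjusted p-values below come from the same limma fit, errors beside changes are standard errors, and those beside levels are SDs.

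**Figure D1:**
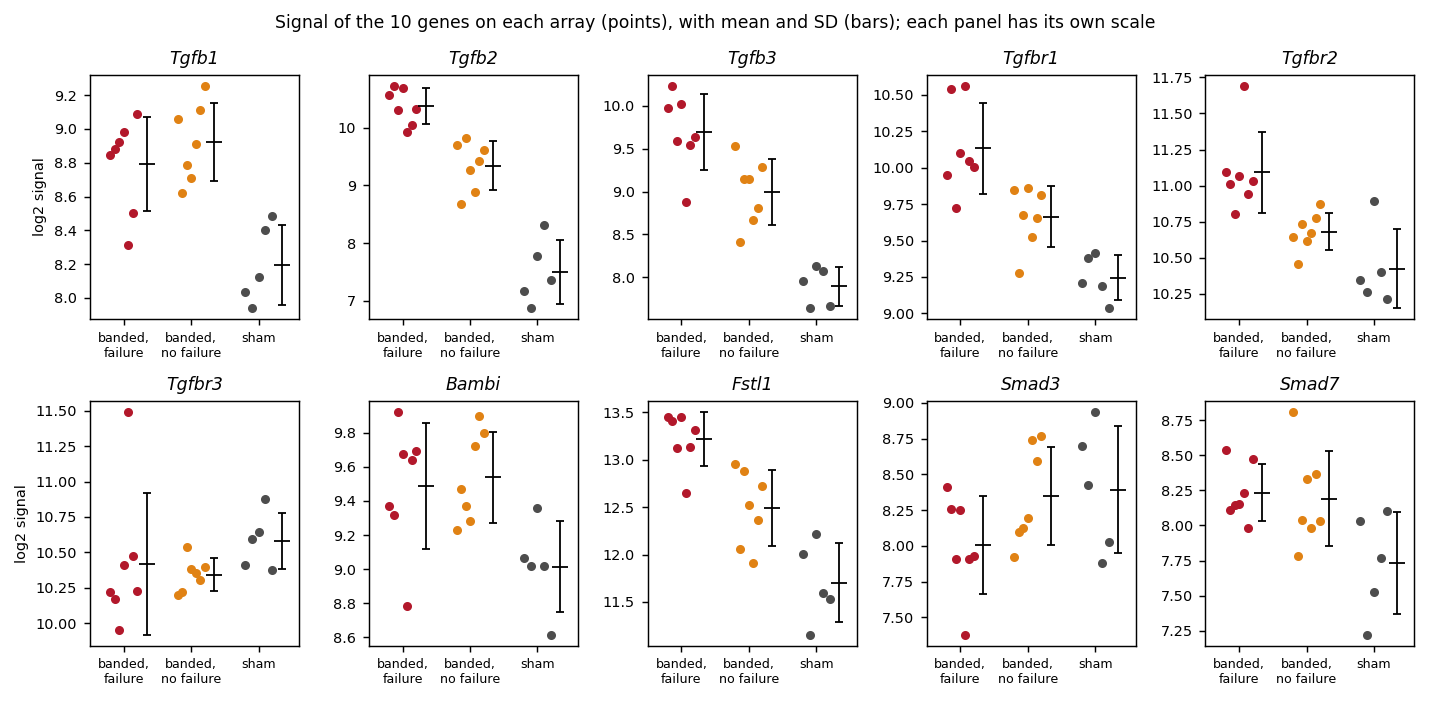
Log2 signal of each of the 10 genes on every array, by group (7 banded mice with heart failure, 7 without, 5 sham), with the mean and SD beside the points and a separate vertical scale in each panel. For Tgfb2 the 3 groups do not overlap, whereas Tgfb1 lies at 8.79 and 8.92 on average in the banded groups and 8.20 in sham mice.

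Among the ligands, Tgfb2 changed most. Its log2 signal in mice with heart failure had a lowest value of 9.92, a median of 10.32 and a highest of 10.72, and in banded mice without heart failure these were 8.68, 9.43 and 9.82. The 5 sham mice gave 7.18, 6.87, 7.77, 8.32 and 7.36. On its brightest probe set no value was shared between any pair of groups. Every failing ventricle lay above every other banded one, and every banded one above every sham one. Tgfb2 rose 7.29-fold with heart failure (2.87 ± 0.23 on the log2 scale, adjusted p = 6.8e-08) and 3.58-fold without it (1.84 ± 0.23, adjusted p = 4.61e-05) against sham. Tgfb2 is the ligand that depends most on the co-receptor Tgfbr3 for binding.

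Tgfb3, the ligand best known from palate and lung development, gave the same order of groups. Signals ran from 8.88 over a median of 9.63 to 10.23 with heart failure and from 8.41 over 9.14 to 9.52 without it. In sham mice they were 7.96, 7.64, 8.13, 8.07 and 7.67. All 14 banded mice lay above all 5 sham mice, while the banded groups overlapped. The gene rose 3.48-fold with heart failure (1.80 ± 0.21, adjusted p = 2.66e-06) and 2.15-fold without it (1.10 ± 0.21, adjusted p = 0.00146). In the 13 arrays with a low single 18S control probe set, the second change was 1.18 (4 and 2 mice) and did not pass (limma adjusted p = 0.0802).

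Tgfb1, the ligand most often named in fibrosis, rose less and did not pass between the banded groups. The lowest, median and highest signals were 8.31, 8.88 and 9.09 with heart failure and 8.62, 8.91 and 9.26 without it, against 8.04, 7.94, 8.12, 8.40 and 8.49 in the sham mice. Every banded mouse without heart failure lay above every sham mouse, and 6 of 7 with heart failure did. It rose 1.51-fold with heart failure (0.59 ± 0.14, adjusted p = 0.0026) and 1.65-fold without it (0.72 ± 0.14, adjusted p = 0.00177). In the 13 arrays of the low set by the single 18S probe set (7, 4 and 2 mice) the 2 changes were 0.35 each. Their limma adjusted p were 0.181 and 0.361, so neither call held there. The split by that probe set was chosen after seeing the data. In the low set by all 18S probe sets (7, 4 and 4 mice) the changes were 0.55 and 0.56. There the limma adjusted p were 0.0106 and 0.0548, so the first call held and the second did not.

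The signalling receptors rose more in failing ventricles. Tgfbr1, the type I receptor kinase, lay between 9.72 and 10.56 with heart failure (median 10.05) and between 9.27 and 9.86 without it (median 9.67). Sham values were 9.21, 9.38, 9.41, 9.19 and 9.03, all below every failing ventricle and below 6 of the 7 other banded ones. The rise was 1.85-fold with heart failure (0.89 ± 0.14, adjusted p = 5.62e-05) and 1.34-fold without it (0.42 ± 0.14, adjusted p = 0.0403). The second of these calls was lost without any 1 of 9 mice (banded mice 1, 3, 4, 6 and 7 without heart failure, sham mice 1, 2, 4 and 5). Over all leave-outs the change stayed between 0.37 and 0.48 and the adjusted p reached 0.0893. This call was also lost in the low set by the single 18S probe set (0.55) and in that by all 18S probe sets (0.41). With the actin difference as a covariate it was lost too, and over all alternatives the limma adjusted p reached 0.366.

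Tgfbr2, the type II receptor that binds ligand first, ranged from 10.80 over a median of 11.03 to 11.69 with heart failure and from 10.46 over 10.67 to 10.87 without it. The sham mice had 10.35, 10.26, 10.89, 10.40 and 10.21, and sham mouse 3 lay above all banded mice without heart failure. Against sham, Tgfbr2 rose 1.59-fold with heart failure (0.67 ± 0.13, adjusted p = 0.000586). Without heart failure it differed by 0.26 ± 0.13 (95% interval -0.02 to 0.53, adjusted p = 0.187), and leaving out sham mouse 3 gave 0.38 with an adjusted p of 0.047.

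Tgfbr3, the betaglycan co-receptor, did not pass in either comparison. Its signals were 9.95 to 11.49 with heart failure (median 10.23), 10.20 to 10.54 without it (median 10.36), and 10.41, 10.60, 10.65, 10.87 and 10.38 in sham mice. A single failing ventricle, from mouse 5, stood at 11.49 and the next at 10.47. The change was -0.16 ± 0.18 with heart failure (adjusted p = 0.517) and -0.24 ± 0.18 without it (adjusted p = 0.397). Leaving out mouse 5 with heart failure gave -0.34 with an adjusted p of 0.0118, a fall that rests on that choice.

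**Figure D2:**
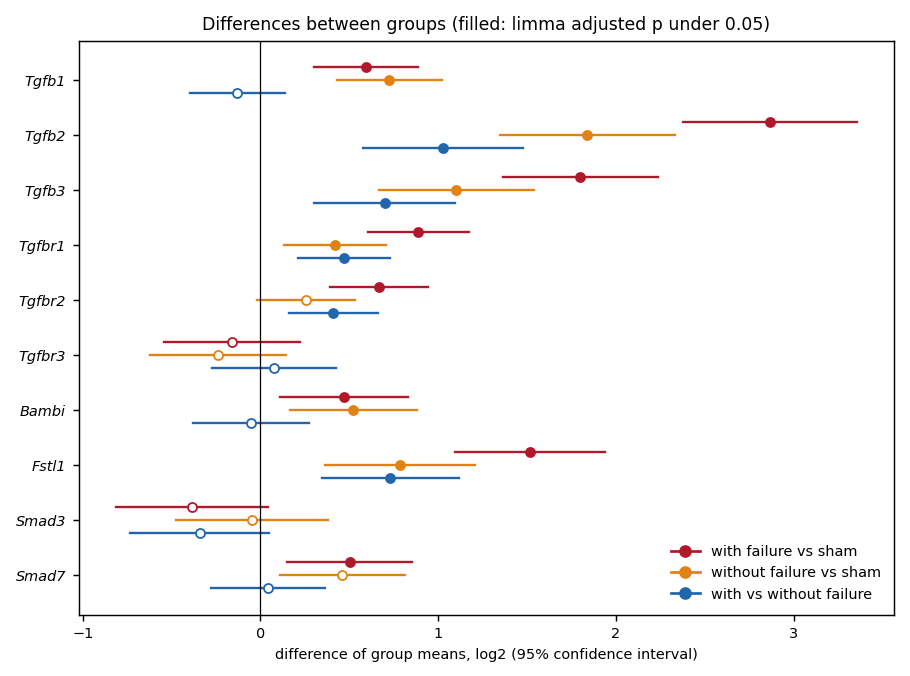
Differences of group means on the log2 scale with 95% confidence intervals from the limma fit, for heart failure against sham (red), banding without heart failure against sham (orange) and heart failure against banding without it (blue), with filled points where the adjusted p was under 0.05. Tgfb2, Tgfb3 and Fstl1 lie to the right of 0 in all 3, and Tgfbr3 and Smad3 have open points throughout.

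Among the modulators, Fstl1 rose most. Values in failing ventricles ran from 12.65 over a median of 13.31 to 13.45, those of the other banded ventricles from 11.91 over 12.52 to 12.95, and the sham mice had 12.01, 11.16, 12.21, 11.60 and 11.53. All 7 failing ventricles lay above all sham ones, and 5 of the 7 other banded ones did. The rise was 2.86-fold with heart failure (1.52 ± 0.20, adjusted p = 1.25e-05) and 1.72-fold without it (0.78 ± 0.20, adjusted p = 0.012).

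Bambi, the decoy receptor, rose in both banded groups. It ranged from 8.79 over 9.64 to 9.92 with heart failure and from 9.23 over 9.47 to 9.90 without it, against 9.06, 9.02, 9.36, 9.02 and 8.62 in sham mice. The rises of 1.39-fold (0.47 ± 0.17, adjusted p = 0.0355) and 1.44-fold (0.52 ± 0.17, adjusted p = 0.0419) overlapped the sham range in 2 mice of each banded group. The first call was lost without any 1 of 8 mice (mice 3, 4, 6 and 7 with heart failure, sham mice 1, 2, 4 and 5) and the second without any 1 of 7 (banded mice 5 to 7 without heart failure, the same 4 sham mice). Over all leave-outs the changes lay between 0.37 and 0.59 and between 0.42 and 0.61, with adjusted p up to 0.103 and 0.105. The call without heart failure was also lost with the split by all 18S probe sets as a block (0.45, adjusted p = 0.0596). So it was in the low set by all 18S probe sets (0.33, adjusted p = 0.309) and by the single one (0.52, adjusted p = 0.27). With heart failure Bambi changed by 0.48 in the first of these low sets (adjusted p = 0.0503) and by 0.67 in the second (adjusted p = 0.0465).

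Smad7, the inhibitory Smad, had signals from 7.98 over 8.15 to 8.54 with heart failure and from 7.79 over 8.04 to 8.81 without it. Sham mice had 8.03, 7.22, 7.53, 7.77 and 8.11, so both banded groups overlapped them. It rose 1.42-fold with heart failure (0.50 ± 0.17, adjusted p = 0.0234), and without heart failure the change of 0.46 ± 0.17 did not pass (adjusted p = 0.0655). The first call was lost without sham mouse 2 or 3 (adjusted p up to 0.0877). It was also lost with the single 18S probe set as a block (Smad7 change 0.38, adjusted p = 0.141), in its low set (0.30, adjusted p = 0.357) and with the actin difference as a covariate (0.28, adjusted p = 0.411). The second comparison passed without banded mouse 2 without heart failure or sham mouse 5 (adjusted p down to 0.0351). A second Smad7 probe set went the other way, by -0.20 with heart failure and -0.27 without it (unadjusted p = 0.0581 and 0.0144, adjusted p = 0.122 and 0.0754 over all probe sets above the filter), so the direction of Smad7 differs between its probe sets.

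Smad3, the receptor-activated Smad of this branch, did not pass. It was 7.38 to 8.41 with heart failure (median 7.93) and 7.92 to 8.77 without it (median 8.20), and 8.70, 8.43, 8.94, 7.88 and 8.03 in sham mice. The changes were -0.39 ± 0.20 (95% interval -0.81 to 0.04, adjusted p = 0.141) and -0.05 ± 0.20 (-0.47 to 0.38, adjusted p = 0.904). Within each group the mice of a single animal ID series had the highest Smad3 signals. In sham mice and banded mice without heart failure that series is also the high set of the single 18S probe set. Series and 18S control cannot be told apart there. The 3 banded mice without heart failure of the high set had 8.59 to 8.77 and the other 4 had 7.92 to 8.20, and the 3 sham mice of the high set had 8.43 to 8.94 and the other 2 had 7.88 and 8.03. The 2 mice with heart failure from the same animal ID series had 8.26 and 8.41 and low 18S, and the other 5 had 7.38 to 8.25. Within the low set of the single 18S probe set Smad3 differed by 0.05 with heart failure against sham (7 and 2 mice), by 0.13 without it against sham (4 and 2) and by -0.08 between the banded groups (7 and 4), with adjusted p of 0.882, 0.816 and 0.84. With the low set taken by all 18S probe sets, the first 2 were -0.31 and -0.23.

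**Figure D3:**
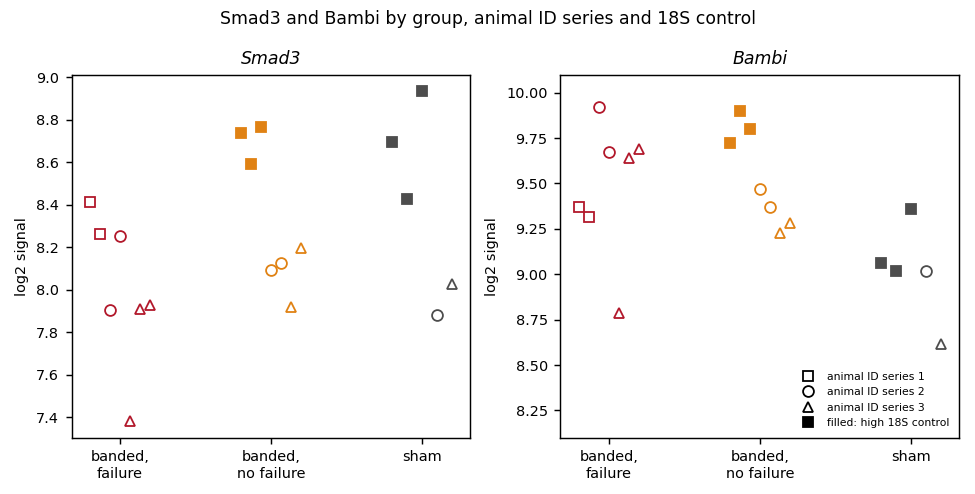
Log2 signal of Smad3 (left) and Bambi (right) on each array by group, with the marker shape for the animal ID series and filled markers for the 6 arrays with a high 18S control. In both panels the 3 filled squares of banded mice without heart failure lie above the other 4 mice of their group.

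The comparison of banded mice with against without heart failure asks what set failing ventricles apart among banded ones, and 5 of the 10 genes, Tgfb2, Tgfb3, Tgfbr1, Tgfbr2 and Fstl1, rose. Of all genes tested 9.48% passed, 3.83% upward and 5.65% downward, and the median change was 0.24 for the 10 genes and -0.01 for all. Tgfb2 was 2.04-fold higher (1.03 ± 0.21, adjusted p = 0.00708), with 7 of 7 failing ventricles above all others, where 2.64% of all genes were separated, 0.839% upward and 1.8% downward. Fstl1 was 1.66-fold higher (0.73 ± 0.18, adjusted p = 0.0191) and Tgfb3 1.62-fold (0.70 ± 0.19, adjusted p = 0.0274). Both receptors rose less, Tgfbr1 1.38-fold (0.47 ± 0.12, adjusted p = 0.0241) and Tgfbr2 1.33-fold (0.41 ± 0.12, adjusted p = 0.0391). For each of these 4 genes 6 of 7 failing ventricles lay above the highest of the other banded ones. Tgfb1 differed by -0.13 (95% interval -0.40 to 0.14, adjusted p = 0.558), Bambi by -0.05 (-0.38 to 0.27, adjusted p = 0.869), Smad7 by 0.04 (-0.28 to 0.36, adjusted p = 0.895), Smad3 by -0.34 (-0.73 to 0.05, adjusted p = 0.258) and Tgfbr3 by 0.08 (-0.27 to 0.43, adjusted p = 0.813).

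These 5 calls depended on the arrays in the fit. In the low set by all 18S probe sets, 7 mice with heart failure against 4 without, 0 of 10 genes passed. The changes there were 1.003 for Tgfb2, 0.62 for Fstl1, 0.64 for Tgfb3, 0.47 for Tgfbr1 and 0.48 for Tgfbr2. In that set limma gave adjusted p of 0.0844 to 0.199 for these 5, all with an unadjusted p under 0.05. In the same fit 1719 of all 10733 genes had an unadjusted p under 0.05. With the split by all 18S control probe sets as a block 1 passed. With the split by the single one as a block, chosen after seeing the data, 4 passed, and with the animal ID series as a block 5 did. Within the 3 animal ID series the Tgfb2 change was 1.34, 1.25 and 0.62, that of Fstl1 1.09, 0.82 and 0.30, and that of Tgfb3 1.19, 1.03 and 0.01, from 2 or 3 mice a group in each. The count of called genes was 2 without mouse 2 with heart failure and without banded mouse 2 or 5 without heart failure. It was 3 without mouse 1 or 4 with heart failure and without banded mouse 6 without heart failure. In every leave-out Tgfb2 and Fstl1 kept their calls, at 0.92 to 1.11 and at 0.63 to 0.82. Their limma adjusted p reached 0.0213 and, as rounded, 0.05, so the Fstl1 call came close to the threshold. Among the other 3 changes the lowest were 0.60 for Tgfb3, 0.40 for Tgfbr1 and 0.31 for Tgfbr2, with adjusted p up to 0.0689, 0.0581 and 0.077.

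Other probe sets bore on these values. Of the 23 probe sets of the 10 genes, 20 lay above the filter. All 4 of Tgfb2 rose in each of the 3 comparisons, by 1.38 to 3.00 with heart failure against sham, by 0.70 to 2.003 without heart failure against sham and by 0.68 to 1.06 between the banded groups. The brightest and the second brightest separated every pair of groups. In both dimmer ones the banded groups overlapped, and in the brighter of these so did sham mice and banded mice without heart failure. The second Fstl1 probe set rose by 1.63 and 1.01 against sham (adjusted p = 1.65e-05 and 0.00458 over all probe sets above the filter), and between the banded groups differed by 0.62 (adjusted p = 0.067). For Tgfbr1 the dimmer probe sets gave 0.74 (adjusted p = 0.00797) and 1.18 (adjusted p = 0.096) with heart failure against sham, and for Tgfbr2 0.99 (adjusted p = 0.0364). Between the banded groups these gave 0.46, 0.60 and 0.50 and did not pass (limma adjusted p = 0.141, 0.492 and 0.378). Those of Tgfbr1 did not pass without heart failure against sham either (0.28 and 0.57, adjusted p = 0.367 and 0.513). When every probe set was tested, the brightest of Tgfbr2 had an adjusted p of 0.0504 between the banded groups. A second Tgfbr3 probe set gave -0.09 and -0.15 against sham, and a second Smad3 one 0.06 and 0.03, none of which passed.

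**Figure D4:**
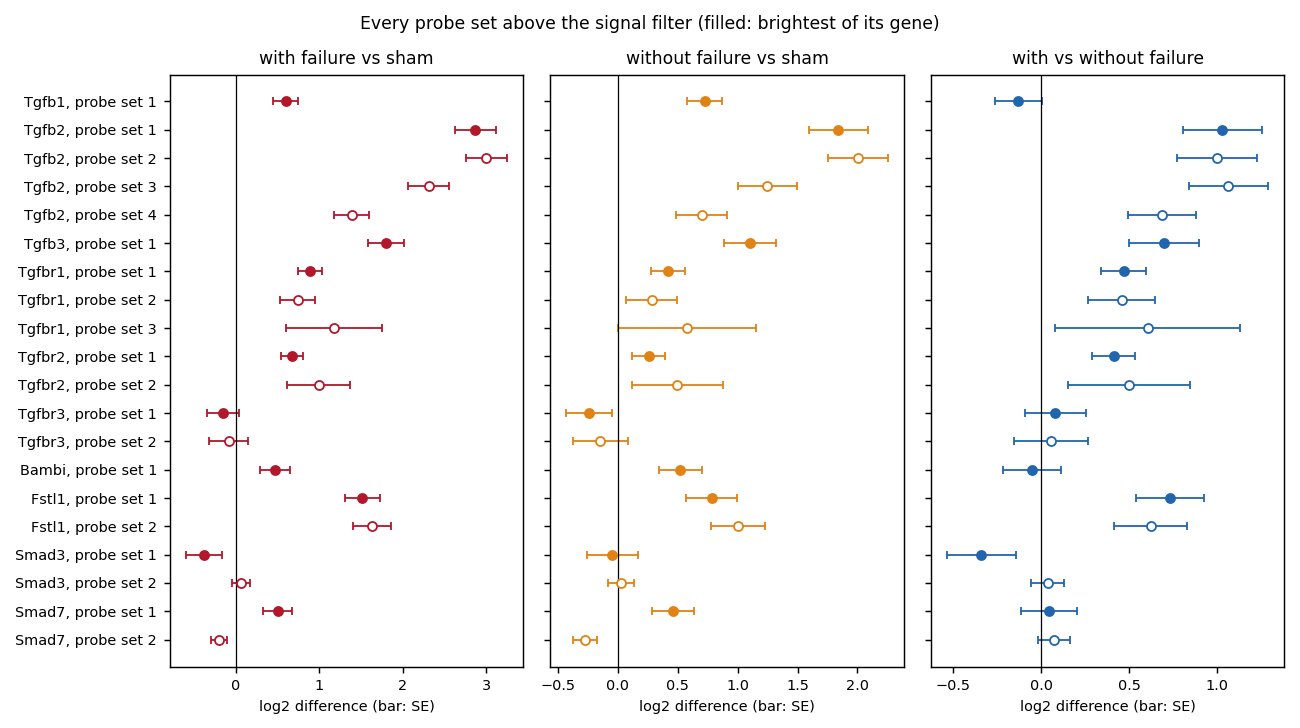
Log2 differences with standard errors for the 20 probe sets above the filter in the 3 comparisons, with the brightest of each gene filled and numbered first. The 4 probe sets of Tgfb2 lie to the right of 0 in every panel, and the 2 of Smad7 lie on opposite sides of 0 in both comparisons with sham.

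Left ventricular weight was also set against the genes within the banded groups. A limma fit over the 14 banded mice, with group as a term, gave 0 of 10733 genes (0%) with a slope on left ventricular weight past the threshold, and 643 at an unadjusted p under 0.05. Of the 10 genes, Smad7 had an unadjusted p under that value (0.39 ± 0.10 log2 per unit of the labelled weight over tibia length, unadjusted p = 0.00187, adjusted p = 0.809). The slope of Tgfb2 was 0.25 (95% interval -0.14 to 0.64) and that of Fstl1 0.29 (-0.06 to 0.64).

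Genes of the latency and activation machinery, which hold TGF-beta in the matrix and release it, rose in 9 of 13 tested cases with heart failure and in 7 without it against sham, and in 7 between the banded groups, with 0 falling in each. The shares of all genes that passed in these comparisons, to be set beside each list below, were 39.3%, 17.4% and 9.48%. The median changes of the list were 0.81, 0.57 and 0.48. Ltbp2, a latent TGF-beta binding protein family member that itself binds fibrillin rather than TGF-beta, averaged 9.62 with heart failure, 7.88 without it and 5.32 in sham mice, rising 19.7-fold and 5.92-fold against sham. Thbs1, an activator of latent TGF-beta, rose 4.78-fold and 2.40-fold, and the protease Mmp2 3.63-fold and 2.07-fold. Between the banded groups Ltbp2 rose 3.33-fold (adjusted p = 0.00629), Mmp2 1.75-fold (adjusted p = 0.00765) and Thbs1 1.995-fold (adjusted p = 0.0499). The last of these calls was lost without any 1 of 13 mice (1, 2, 4, 6 and 7 with heart failure, 2 to 6 of the banded mice without it, sham mice 2, 3 and 5), where the change lay between 0.83 and 1.13 over all leave-outs. In either low 18S set 1 of the 7 calls between the banded groups was left, and Ltbp2, Mmp2 and Thbs1 did not pass (changes of 1.80, 0.74 and 1.08, adjusted p up to 0.0668, 0.107 and 0.146).

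Co-receptors and TGF-beta binding proteins rose in 5 of 9 with heart failure and in 1 without it against sham, and in 5 between the banded groups. Fmod (fibromodulin), a proteoglycan that binds TGF-beta, averaged 11.74 with heart failure, 9.94 without it and 8.78 in sham mice, and rose 7.81-fold with heart failure against sham and 3.49-fold between the banded groups (adjusted p = 0.0184). Bgn (biglycan), a proteoglycan of the same family, rose 3.65-fold and 2.16-fold against sham and 1.69-fold between the banded groups. Cd109, a co-receptor that inhibits signalling, averaged 5.83 with heart failure, 4.86 without it and 4.00 in sham mice, some of which lay below the filter, so no fold against sham is given. Between the banded groups it rose 1.96-fold (adjusted p = 0.0306), a call lost without any 1 of 8 mice (1, 2, 4 and 6 with heart failure, 2, 5, 6 and 7 without it). The count of 1 without heart failure was 2 to 4 without mouse 2, 5 or 7 with heart failure, without banded mouse 2, 5, 6 or 7 and without sham mouse 3, 4 or 5. The count of 5 between the banded groups was 3 without banded mouse 5 without heart failure. It was also 3 with the single 18S probe set as a block, and 0 in either low 18S set. In each low set 4 of the 9 had an unadjusted p under 0.05 in limma. Of all 10733 genes, 1719 did in the set by all 18S probe sets and 2010 in that by the single one. There Fmod changed by 1.74 and Bgn by 0.62, with adjusted p up to 0.07 and 0.0815.

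Smads and their regulators gave 6 of 14 higher and 2 lower (Wwp1 and Zfyve9) with heart failure, 5 higher without it, and 1 higher between the banded groups. Pmepa1, a TGF-beta-induced inhibitor of Smad activation, rose 2.71-fold and 1.62-fold against sham and 1.67-fold between the banded groups. The repressor genes Ski and Tgif1 rose 1.41-fold and 1.49-fold with heart failure and 1.38-fold and 1.33-fold without it. Without sham mouse 2 the list counts against sham were 5 and 3, and Pmepa1 and Tgif1 lost their calls without heart failure (adjusted p = 0.0565 and 0.0645). The 1 gene higher between the banded groups, Pmepa1, was joined by a second one without mouse 3 with heart failure and did not pass in either low 18S set (0.69, adjusted p up to 0.113).

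Of 22 tested genes known as TGF-beta targets, 16 rose and 1, Id1, fell with heart failure, 11 rose without it, and 9 rose between the banded groups. The medians were 1.20, 0.69 and 0.63. This list was drawn up with earlier results of these mice known, so its direction is not independent evidence. Comp, a matrix protein of cartilage and tendon, rose 15.9-fold and 4.40-fold against sham, Lox, a collagen crosslinking enzyme, 10.5-fold with heart failure and Postn (periostin) 7.94-fold and 3.79-fold. Ccn2 (connective tissue growth factor) rose 3.49-fold without heart failure. Between the banded groups Lox rose 4.13-fold, Comp 3.62-fold and the protease inhibitor Timp1 3.05-fold. Without sham mouse 2, 6 target genes passed without heart failure in place of 11. In the low 18S set by all its probe sets, 0 of the 9 calls between the banded groups held. There 9 of the 22 had an unadjusted p under 0.05 in limma, as had 1719 of all 10733 genes. In the low set by the single probe set 2 passed, Lox and Timp1.

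The TAK1 branch, a Smad-independent kinase route from the TGF-beta receptors, gave 1 higher and 2 lower of 8 with heart failure, 1 lower without it and 1 lower between the banded groups, shares near those of all genes. Mapk14 (p38-alpha) averaged 10.15 with heart failure, 10.41 without it and 10.81 in sham mice, and fell 1.58-fold and 1.31-fold against sham (adjusted p = 7.05e-06 and 0.00348). Between the banded groups it fell 1.20-fold (adjusted p = 0.034), a call lost without any 1 of 8 mice (1, 2, 4 and 5 with heart failure, 2, 5, 6 and 7 without it). Map3k7, the TAK1 kinase itself, rose 1.65-fold with heart failure (0.72, adjusted p = 0.00432), and did not pass in the low set of the single 18S probe set (Map3k7 change 0.18, adjusted p = 0.244) or with the actin difference as a covariate (0.47, adjusted p = 0.188). Mapk14 without heart failure did not pass in that low set either (-0.47, adjusted p = 0.0755), with the actin covariate (-0.34, adjusted p = 0.0728) or as a mean of its probe sets (-0.26, adjusted p = 0.156). Mapk9 fell 1.19-fold with heart failure (adjusted p = 0.0494), a call lost without any 1 of 13 mice (all with heart failure but mouse 3, banded mice 3, 4, 6 and 7 without it, sham mice 1, 2 and 4). The list count between the banded groups ran from 0 to 2 over the leave-outs, and that without heart failure against sham was 2 without sham mouse 4 or 5.

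**Figure D5:**
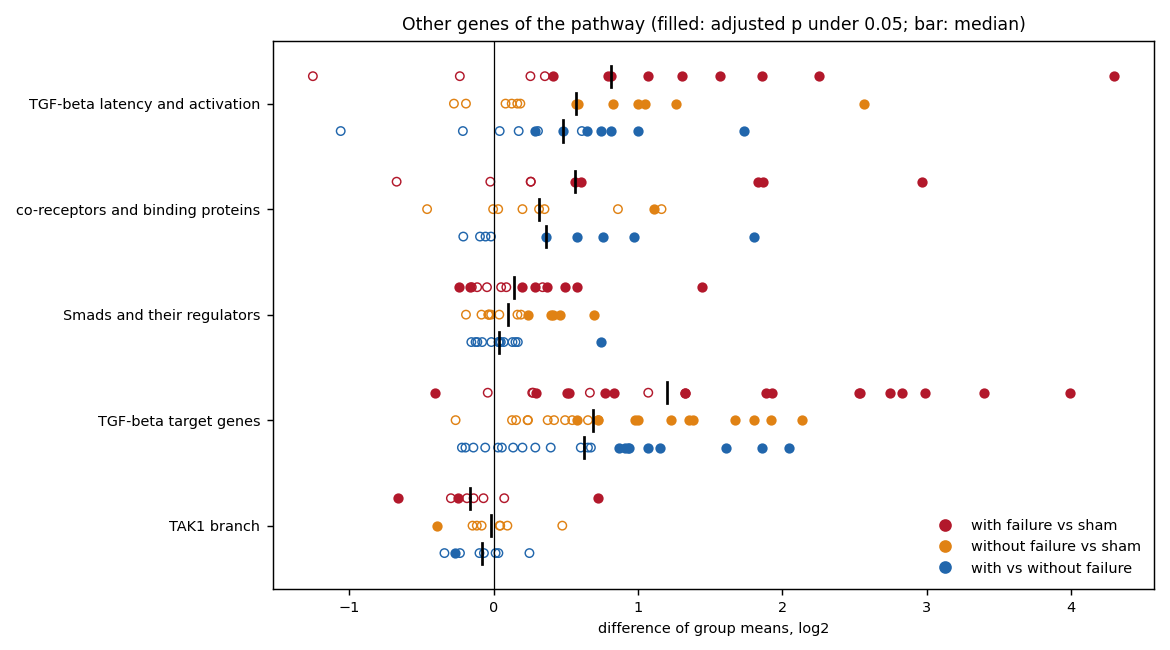
Log2 differences of the other genes of the pathway by list and comparison, with filled points where the adjusted p was under 0.05 and a bar at each median. Points of the latency and target lists lie mostly to the right of 0, with medians of 0.81 and 1.20 for heart failure against sham, and the TAK1 branch has a median of -0.16 there.

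Of the fibroblast markers, 7 of 10 were higher and 1 (Scara5) lower with heart failure against sham. Without heart failure 6 were higher and 1 lower, and between the banded groups 3 were higher. Their summed log2 level was 15.50 to 15.88 with heart failure, 15.19 to 15.62 without it and 15.08 to 15.44 in sham mice. Cardiomyocyte markers gave 1 higher and 3 lower with heart failure, endothelial markers 4 higher of 10, and smooth muscle and pericyte markers 3 higher and 2 lower of 8. Of the 10 macrophage and leukocyte markers, Cx3cr1 was higher with heart failure and no other passed against sham. Ncam1, 1 of 2 tested Schwann cell and neuron markers, was higher with heart failure. The atrial marker Myl7 was lower with heart failure than in banded mice without it, and no atrial, epicardial or adipocyte marker passed against sham. Mouse 1 with heart failure had the highest summed atrial, epicardial and adipocyte marker levels (15.38, 8.57 and 6.95). Without that mouse Tgfb2, Tgfb3, Tgfbr1, Tgfbr2 and Fstl1 still passed against sham. Between the banded groups Tgfb3 and Tgfbr2 then lost their calls, and Tgfb2, Tgfbr1 and Fstl1 kept theirs. The part of these cell types in the changes of the 10 genes was not tested.

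The genes whose signals over the 19 arrays were most like those of each gene are given as a description, since all arrays share the group differences. Pearson's r is followed by the r of deviations from the group means. Closest to Tgfb2 were Svep1, a large matrix protein (0.98 and 0.82), and Fxyd6, an ion pump regulator (0.98 and 0.77). Tgfb3 was most like Tnc, tenascin-C (0.98 and 0.89), and Dpysl3, a cytoskeletal regulator (0.98 and 0.87). Nearest to Tgfb1 were Ptms (0.93 and 0.81) and the kinase gene Csk (0.93 and 0.84). For Tgfbr1 they were Nox4, an NADPH oxidase (0.94 and 0.80), and Cyth3 (0.94 and 0.84), and for Tgfbr2 Cd302 (0.97 and 0.94) and the metalloprotease gene Adam9 (0.97 and 0.91). Tgfbr3 came closest to Mtmr10 (0.95 and 0.95) and Tcf23 (0.92 and 0.93), where a single array of mouse 5 with heart failure stands apart. Fstl1 was most like Entpd2, an ectonucleotidase (0.96 and 0.85), and Serpinf1, pigment epithelium-derived factor (0.96 and 0.85). Bambi had Spsb4 (0.88 and 0.83) and Gas2l3 (0.86 and 0.78), Smad3 had Zc3hav1l (0.91 and 0.94) and Auts2 (0.90 and 0.87), and Smad7 had Tut1 (0.89 and 0.89) and Alpl (0.86 and 0.78).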

How the data were processed

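Left ventricular RNA of 19 mice was measured with 45101 Affymetrix probe sets on 1 array each, from 3 ug of total RNA per the labels. The authors deposited log2 values, and the submitters' processing notes name GCRMA, with no version. GCRMA draws dim probe sets to a common floor and compresses their changes. The deposited log2 values ran from 2.19 to 16.77, with array medians of 2.85 to 2.99. Arrays have no sequencing depth, and their number limits the precision.

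Through GEO's platform annotation 34958 probe sets had 1 symbol, 932 several and 9211 none listed. Probe sets with log2 above 4 on at least 5 arrays were kept, and the brightest stood for each of 10733 genes. A single limma 3.58.1 fit in R 4.3.3 took all arrays with no covariate beside group, and p-values were adjusted by Benjamini-Hochberg across the tested genes, with 0.05 as threshold. Checked on simulated data, in which 100 genes were changed by 0.5 and 100 by 1, the fit found 58% and 90% of them where failing and sham ventricles were simulated, 62% and 88% for the banded ventricles without failure, and 68% and 96% for one banded group against the other. False calls in these simulations were 3 of 151, 8 of 158 and 13 of 177, the second slightly and the last more clearly above the nominal threshold. Confidence intervals are at 95%. The labels name separate mice, and replicate numbers follow accession order, so they pair nothing.

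The 10 genes, 5 pathway lists and 10 marker lists were chosen with earlier results of these data known. The text names, by rule, all 10 genes, up to 3 genes with the largest change of each pathway list and comparison, and the 2 genes most like each of the 10. Wwp1, Zfyve9, Id1, Scara5, Cx3cr1, Ncam1 and Myl7 were named after their values were seen. Alternatives covered filter, scaling, probe sets, variance model, array sets, animal ID series, actin difference and each mouse left out. The 2 alternatives from a single 18S probe set were chosen after seeing the data. Figures used matplotlib 3.10.9, pandas 2.3.3 and Python 3.11.15.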

Additional observations from a re-analysis of the deposited data

Results flagged for a closer look

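Among 30 sets of values, 10 genes in 3 groups, 4 held an array whose gap to its nearest neighbour was large against the whole range of its group, and chance gives about 1 in 20 such cases. In mouse 5 with heart failure, Tgfbr2 stood at 11.69 with the next at 11.09, Tgfbr3 at 11.49 with the next at 10.47, and Fstl1 at 12.65, below the next at 13.12. Sham mouse 3 had Tgfbr2 at 10.89 with the next at 10.40. Marker genes of mouse 5 lay outside the range of the other failing ventricles in both directions, with 2 of 10 fibroblast markers above it and 3 below, 2 of 10 macrophage and leukocyte markers above and 4 below, 2 of 10 endothelial markers above and 3 below, 0 of 8 smooth muscle and pericyte markers above and 4 below, and 1 of 10 cardiomyocyte markers above and 3 below.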

How the results depend on the processing

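Over 34 alternatives, 1020 changes of the 10 genes were recomputed. In 927 the direction and the side of the threshold held or neither value passed, 87 lost and 5 gained a call, and 1 reversed. The reversal was Smad3 without heart failure against sham, at 0.66 (adjusted p = 0.023) with the actin difference as a covariate. The actin difference was 0.943 to 1.02 in sham mice and at most 0.905 in banded ones. The groups thus share no range of it, and this fit cannot separate it from banding. The cause of the reversal was not tested. For 37 changes of other pathway genes, 1158 of 1258 values kept direction and call and 100 lost the call. Across the leave-outs the 10 genes gave 6 to 9 calls with heart failure against sham (all genes 3538 to 4388), 4 to 7 without it (1185 to 2200), 2 to 5 between the banded groups (508 to 1146) and 0 for the slope. The count of all genes between the banded groups was 599 without mouse 2 with heart failure and 508 and 672 without banded mouse 5 or 6 without it, and against sham without heart failure it was 1185 without sham mouse 2. With heart failure against sham, 6949 probe sets passed when each was tested, 2705 genes with the actin difference as a covariate and 2670 in the low set of the single 18S probe set. Without heart failure these were 1199 with the actin difference, 894 in the low set by all 18S probe sets and 343 in that by the single one, where 3 and 2 of the 10 genes passed. Between the banded groups 429 genes passed with the split by all 18S probe sets as a block, and 72 and 149 in the 2 low sets. Of the 10 genes, 3 passed there with no filter and 3 with the mean of a gene's probe sets. With the block by all 18S probe sets 1 passed, with that by the single one 4, and in either low set 0. In each of these 2 low sets 5 of the 10 had an unadjusted p under 0.05 in limma, against 1719 and 2010 of all genes. Both sets hold the same 7 and 4 banded mice and differ only in the sham mice of the fit, so they are not separate checks. Smad7 lost its call with heart failure under the mean of probe sets. No paired analysis was possible because the labels give no replicate numbers shared between groups. Arrays carry no counts, and dim probe sets near the floor limit what can be seen.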
